A study of Caenorhabditis elegans with 8 samples.

Results

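The genes described here are 37 nuclear genes of *Caenorhabditis elegans* that encode subunits of the mitochondrial respiratory chain, chosen by name from the 45461 features of the expression table. They comprise 11 subunits of complex I, 4 of complex II, 4 of complex III, 6 of complex IV and 10 of complex V, together with the cytochrome *c* gene *cyc-2.1* and the ADP/ATP carrier gene *ant-1.1*. All 37 passed the filter on low counts, which 14311 features passed, so every member enters every comparison below.

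Complex I (NADH:ubiquinone oxidoreductase) and complex II (succinate dehydrogenase) pass electrons to ubiquinone, complex III passes them on to cytochrome *c*, and complex IV (cytochrome *c* oxidase) hands them to oxygen. The protons pumped on the way drive complex V, the ATP synthase, and the carrier exchanges the ATP made in the mitochondrion for cytosolic ADP. In *C. elegans*, mutations in or RNAi against several of these genes, among them *gas-1*, *mev-1*, *isp-1*, *nuo-1*, *cco-1* and *atp-2*, are known to alter life span, anaesthetic sensitivity or resistance to oxidative stress.

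RNA-seq of whole animals was done on 4 strains, with 2 libraries each, that differ in the oxygen-sensing pathway. EGL-9 is a prolyl hydroxylase that uses oxygen to mark the transcription factor HIF-1 for degradation, so loss of *egl-9* leaves HIF-1 active in normal air, and *cyp-36A1* encodes a cytochrome P450. The strains were *cyp-36A1(gk824636); egl-9(sa307)* double mutants, *egl-9(sa307) hif-1(ia4)* double mutants, *egl-9(sa307)* single mutants and the wild-type strain N2, written below as *cyp-36A1; egl-9*, *egl-9 hif-1*, *egl-9(lf)* and wild type, where *(lf)* in the text and figures stands for loss of function. All 3 mutant strains carry the same *egl-9* allele, and the series has no *hif-1* or *cyp-36A1* single mutant, so the effect of either mutation is seen only in animals that also lack *egl-9*. Each library came from 150 very young adults, with 0 or 1 eggs in the uterus, grown on OP50 bacteria at 22.5 °C, and each held between 11925027 and 22269111 reads assigned to genes. In whole animals, fewer cells of a type and less RNA per cell cannot be told apart.

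The labels were checked on the mutated genes. *hif-1* stood at 45.8 and 42.97 CPM (read counts scaled to a common library size) in *egl-9 hif-1* and between 129 and 189 CPM in the other 6 libraries. *cyp-36A1* had 4.82 and 19.2 CPM in *cyp-36A1; egl-9*, against 29.3 and 54.7 CPM in *egl-9(lf)*, and the difference did not pass the test (log2 fold change −1.81, adjusted p = 0.116). In *egl-9 hif-1* the *cyp-36A1* transcript had 5.28 and 6.79 CPM, and in wild type 5.79 and 8.97 CPM. Replicate 2 of *cyp-36A1; egl-9* was above both of these strains, so the level of *cyp-36A1* alone does not settle that label. The *egl-9* transcript was higher in *egl-9(lf)* than in wild type (log2 fold change 1.81), so its level does not report the loss of the protein.

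The 37 genes were among the abundant transcripts of the animal. Their median level, as the mean FPKM (fragments scaled for transcript length and library size) of all 8 libraries, was 307, against 10.7 over all genes tested, and they took between 1.55% and 1.76% of each library. FPKM is corrected for length, so levels can be set against each other: the ADP/ATP carrier *ant-1.1* was the highest at 2905 FPKM, followed by *atp-1*, the alpha subunit of the ATP synthase, at 1212 FPKM and *cyc-2.1* at 1018 FPKM. Complex V ran from 202 FPKM for *asb-1* up to *atp-1* with a median of 558 FPKM, and complex IV from 387 FPKM for *cox-6A* to 716 FPKM for *cox-5A*. By their medians the complexes nearer the entry of electrons were lower, at 292 FPKM for complex III, 157 for complex II and 161 for complex I. The median of complex IV was 521 FPKM. The range of complex V overlapped those of complexes III and I. Complex III spanned 121 FPKM for *ucr-2.1* to 370.8 FPKM for *isp-1*, complex II spanned 64.9 FPKM for *sdha-1* to 167 FPKM for *sdhd-1*, and complex I spanned 64.0 FPKM for *nduf-2.2* to 248 FPKM for *nuo-3*. The value for *nuo-3* carries a limit, since 72.6% of its exon bases lie in another gene on the same strand in the Ensembl annotation.

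Within most genes the strains lay close together. The coefficient of variation of the CPM over all 8 libraries was lowest for *atp-3*, a stalk subunit of the ATP synthase, at 4.78% and for *nuo-3* at 4.83%, and highest for *sdha-1* at 21.5%, *mev-1* at 15.4%, *gas-1* at 14.2% and *asg-2* at 13.7%. The libraries of a strain differed by a median over the members of 0.255 on the log2 scale in *cyp-36A1; egl-9*, but by 0.0887 in *egl-9 hif-1*, 0.0596 in *egl-9(lf)* and 0.0454 in wild type. In *cyp-36A1; egl-9*, 36 of the 37 genes were higher in replicate 1 than in replicate 2, by up to 0.50 for *atp-4*, and the values below are given with and without these libraries where they change a statement.

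The first comparison sets *egl-9(lf)* against wild type. *sdha-1* of complex II was 39.8% higher and was the member that rose, while *gas-1* of complex I and *asb-2* of complex V fell, with changes of −23.3% and −23.1%. The log2 fold changes of the other 3 complex II genes were also above 0 without passing, as were those of *nuo-3*, *nduf-2.2*, *cox-6A* and *asb-1*, and the other 27 uncalled genes were below 0. By edgeR's quasi-likelihood test at a Benjamini-Hochberg adjusted p of 0.05, 1 member rose and 2 fell, where 7.47% of all genes tested rose and 13.6% fell. The share of members called in either direction was thus below that of genes in general (21.1%). The direction was more uniform than the calls: 29 of 37 log2 fold changes were below 0 and 28 genes were lower in both *egl-9(lf)* libraries than in both wild-type libraries, where 33.8% of all genes tested were. Another 6 were higher in both libraries and 3 overlapped, where 68.9% of all genes had no overlap in either direction. The median log2 fold change was −0.16 over the members, against 0.0047 over all genes tested. Scaled by library totals in place of TMM factors, the members' median was −0.080, the median of all genes 0.087, and 27 members stayed below 0. The count of members called lower depended on the fit. A model of these 2 strains alone, in place of all 4, called 16 of the 37 lower and 2 higher. Of all genes, that model called 18.9% lower and 14% higher. Summed CPM of 6 muscle and 5 intestine marker genes were also lower in *egl-9(lf)* than in wild type, at 6724 and 7264 against 7658 and 8009 for muscle and at 34802 and 31698 against 52203 and 48556 for intestine, with 0 of 6 and 2 of 5 markers called lower. The intestine sum is nearly all *vit-2* and *vit-6*, the markers called, and 1 marker of each list was above 0. Of 4 sperm markers, 4 were called lower (median −1.36), and of 8 germline markers, 3 were called higher and 0 lower (median 0.33). The part of any of these in the members' values was not tested.

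The second comparison, *egl-9 hif-1* against *egl-9(lf)*, asks which differences between *egl-9(lf)* and wild type need *hif-1*. *sdha-1* and *mev-1* of complex II fell, with changes of −38.9% and −21.7%, and *gas-1* rose to 1.38 times its level in *egl-9(lf)*. By the same test 1 member rose, where 13.5% of all genes rose, and 2 fell, where 6.39% did (19.9% in either direction). In all, 30 log2 fold changes were above 0, and the 7 below 0 were the 4 genes of complex II with *nuo-3*, *cox-6A* and *asb-1*. The median was 0.13, against −0.014 over all genes, and 25 genes were higher in both libraries, 5 lower in both and 7 overlapped, where 29.8% and 29.5% of all genes were higher and lower in both. With library totals the members' median was 0.046, the median of all genes −0.095, and 25 members were above 0. Against wild type, *egl-9 hif-1* had 0 members called, where 0.314% of all genes were called, 1 at an unadjusted p below 0.05 and 0 by DESeq2. The median was −0.013, 4 genes were higher in both libraries, 8 lower and 25 overlapped, where 28.6% of all genes had no overlap in either direction. The direction of that median rested on the libraries, since 26 members were above 0 without replicate 1 of the double mutant and 6 without its replicate 2. These comparisons share the *egl-9(lf)* or wild-type libraries with the first, so their values are not independent of it.

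The third comparison sets *cyp-36A1; egl-9* against *egl-9(lf)*. No member was called by edgeR, where 2.33% of all genes were, and 0 had an unadjusted p below 0.05 and 0 were called by DESeq2. The lowest adjusted p was 0.727, for *nduf-7*, a complex I subunit with a log2 fold change of 0.20. The 95% intervals of the 37 differences lay between −0.27 and 0.54 on the log2 scale. Among them 6 genes were higher in both libraries, where 20.9% of all genes were, 0 were lower in both, where 15.7% were, and 31 overlapped. The median was 0.099, with 35 members above 0, but it rested on 1 library: it was −0.018 with 13 members above 0 without replicate 1 of the double mutant, and 0.208 with 36 above 0 without replicate 2. Against wild type, *cyp-36A1; egl-9* had 2 members higher, *sdha-1* and *mev-1*, where 7.62% of all genes were, and 0 lower, where 12.3% were (19.9% in either direction). The median against wild type was −0.023, 5 genes were higher in both libraries, 11 lower and 21 overlapped, where 64.9% of all genes had no overlap in either direction. Without replicate 1 of the double mutant the median was −0.165 and 0 members were called, and without replicate 2 it was 0.103 and 3 were called.

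**Figure D1:**
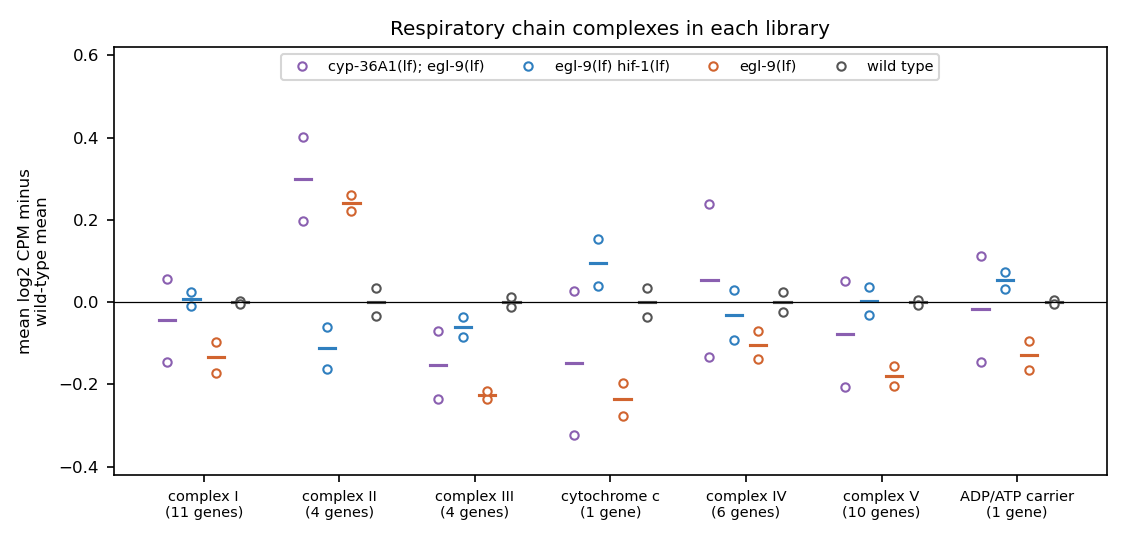
Mean log2 CPM of the genes of each complex minus the wild-type mean, with 1 open circle per library, a dash at the strain mean and 1 colour per strain. Complex II lies at 0.197 to 0.400 in the *cyp-36A1; egl-9* and *egl-9(lf)* libraries and below wild type in both *egl-9 hif-1* libraries, and the other complexes lie below wild type in both *egl-9(lf)* libraries.

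Complex II oxidizes succinate in the citric acid cycle and feeds the electrons to ubiquinone. *sdha-1* (C03G5.1) encodes its flavoprotein, *sdhb-1* (F42A8.2) its iron-sulfur subunit, and *mev-1* (T07C4.7) and *sdhd-1* (F33A8.5) the pair of membrane anchors. *sdha-1* had 179 and 174 CPM in *cyp-36A1; egl-9*, 107 and 117 CPM in *egl-9 hif-1*, 178 and 188 CPM in *egl-9(lf)*, and 132 and 130.3 CPM in wild type. The 4 libraries that lack *egl-9* and keep *hif-1* were thus above the other 4 with no overlap, and the *egl-9 hif-1* libraries were the lowest. In FPKM the strain means were 74.9 ± 0.389 in *cyp-36A1; egl-9*, 47.3 ± 3.03 in *egl-9 hif-1*, 82.0 ± 2.40 in *egl-9(lf)* and 55.3 ± 0.509 in wild type (SD, n = 2).

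*sdha-1* rose in *egl-9(lf)* against wild type by 0.48 on the log2 scale (SE 0.098, 95% interval 0.27 to 0.70, adjusted p = 0.00569 by edgeR). It fell by 0.71 in *egl-9 hif-1* against *egl-9(lf)* (interval −0.93 to −0.49, adjusted p = 0.000589), and kept that call in all 20 alternatives run at the same threshold. It rose by 0.43 in *cyp-36A1; egl-9* against wild type (interval 0.21 to 0.64, adjusted p = 0.0130) and differed from *egl-9(lf)* by −0.06 (interval −0.27 to 0.16), which did not pass. Both calls against wild type were lost when either wild-type library was left out. The call in *egl-9(lf)* was lost also without replicate 2 of *egl-9(lf)* (0.44, adjusted p = 0.0616), and the call in *cyp-36A1; egl-9* without its replicate 1 (adjusted p = 0.0530). In *egl-9 hif-1* against wild type the difference was −0.23 (interval −0.44 to −0.01), which passed unadjusted but not after adjustment.

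*mev-1* encodes the large cytochrome *b* anchor and is the gene of the methyl viologen-sensitive *mev-1* mutant. It had 131 and 110.1 CPM in *cyp-36A1; egl-9*, 82.3 and 88.6 CPM in *egl-9 hif-1*, 108 and 109.8 CPM in *egl-9(lf)*, and 91.5 and 94.6 CPM in wild type. The 4 libraries that lack *egl-9* and keep *hif-1* were again the highest and those of *egl-9 hif-1* the lowest, while *cyp-36A1; egl-9* and *egl-9(lf)* nearly met. Its log2 fold change in *egl-9(lf)* against wild type was 0.23, which did not pass (adjusted p = 0.160). It fell by 0.35 in *egl-9 hif-1* against *egl-9(lf)* (SE 0.109, interval −0.59 to −0.11, adjusted p = 0.0435) and rose by 0.37 in *cyp-36A1; egl-9* against wild type (interval 0.13 to 0.61, adjusted p = 0.0357). Both calls were close to the threshold: the first was lost in 6 of the 8 fits that left out 1 library, with adjusted p between 0.057 and 0.187, and the second was lost without any 1 of the *egl-9(lf)* or wild-type libraries, or without replicate 1 of the double mutant (0.24, adjusted p = 0.189). In *cyp-36A1; egl-9* against *egl-9(lf)* it differed by 0.14 (interval −0.10 to 0.38), which did not pass.

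The other complex II genes, named to complete the complex, lay on the same sides without passing the test. *sdhb-1* had 213 and 173 CPM in *cyp-36A1; egl-9*, 163 and 163 CPM in *egl-9 hif-1*, 175 and 196 CPM in *egl-9(lf)*, and 162 and 170.5 CPM in wild type. Its log2 fold changes were 0.16 in *egl-9(lf)* against wild type and −0.19 in *egl-9 hif-1* against *egl-9(lf)*. *sdhd-1*, at 0.10 and −0.16 in the same comparisons, had *egl-9(lf)* libraries that overlapped those of wild type.

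The double mutants were also compared with each other, a comparison added after the data were seen. *sdha-1* was higher in *cyp-36A1; egl-9* than in *egl-9 hif-1* by 0.65 on the log2 scale (SE 0.098, interval 0.44 to 0.87, adjusted p = 0.00126), and kept the call in all 20 alternatives. *mev-1* was higher by 0.50 (SE 0.109, interval 0.26 to 0.74, adjusted p = 0.00954), a call lost only without replicate 1 of *cyp-36A1; egl-9*, where it was 0.37 (adjusted p = 0.0664). These were the members called higher, 2 where 5.86% of all genes were, and 0 were called lower, with 18.3% of all genes called in either direction. All 4 complex II genes were higher in both libraries of *cyp-36A1; egl-9* than in both of *egl-9 hif-1*, where 26.2% of all genes were. Their median was 0.38, against −0.034 for the other 33 members. Without replicate 1 of *cyp-36A1; egl-9* these medians were 0.255 and −0.156. Without its replicate 2 they were 0.501 and 0.068, so the sign for the other members rested on 1 library.

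Set against the other members within each library, complex II gives a value on which the scaling of the libraries has no bearing. Its mean log2 CPM minus that of the other 33 genes, set to 0 in wild type, was 0.326 and 0.375 in *cyp-36A1; egl-9*, −0.125 and −0.089 in *egl-9 hif-1*, 0.406 and 0.389 in *egl-9(lf)*, and −0.034 and 0.034 in wild type. This split of the members was made after their values were seen and is given without a test. Of 8 germline markers, 3 were called higher in *cyp-36A1; egl-9* than in wild type, where 7.62% of all genes were. In *egl-9(lf)* against wild type 3 were called higher, where 7.47% of all genes were. In *egl-9 hif-1* against *egl-9(lf)* 0 were called, where 19.9% of all genes were. There 7 of the 8 were below 0, with a median of −0.227, against −0.269 for complex II. Both libraries were lower for 5 of the 8, where 29.5% of all genes were. The germline markers' mean log2 CPM minus the wild-type mean was 0.219 and −0.0154 in *egl-9 hif-1*, and 0.246 and 0.289 in *egl-9(lf)*. For complex II it was −0.162 and −0.0614 in *egl-9 hif-1*, and 0.223 and 0.260 in *egl-9(lf)*. The part of these markers in the complex II values was not tested. *sdha-2*, a second gene for the flavoprotein that is not among the 37, had a log2 fold change of 0.27 in *egl-9(lf)* against wild type (adjusted p = 0.0988) and −0.15 in *egl-9 hif-1* against *egl-9(lf)* (adjusted p = 0.382), neither of which passed.

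**Figure D2:**
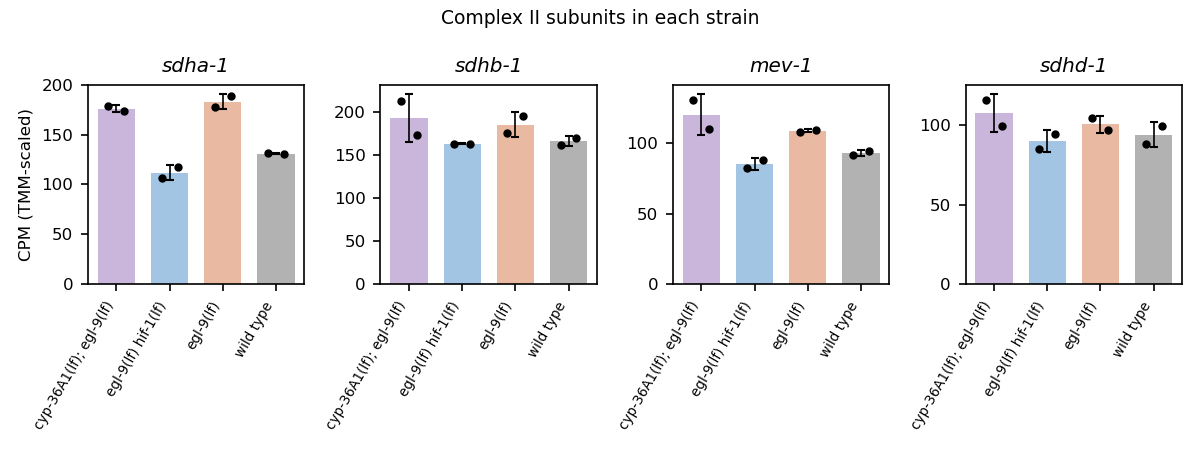
CPM of the 4 complex II genes in each strain, with 1 point per library, a bar from 0 to the strain mean and error bars of 1 SD (n = 2). *sdha-1* lies between 174 and 188 CPM in the *cyp-36A1; egl-9* and *egl-9(lf)* libraries and between 107 and 132 CPM in the other 4. The libraries of *sdhb-1* and *sdhd-1* spread more than those of *sdha-1* in *cyp-36A1; egl-9* and in wild type.

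Complex I takes electrons from NADH. The median log2 fold change of its 11 genes was −0.16 in *egl-9(lf)* against wild type and 0.13 in *egl-9 hif-1* against *egl-9(lf)*. *gas-1* (K09A9.5), the gene for the core subunit beside the ubiquinone site, was the member that passed. It had 137 and 129.8 CPM in *cyp-36A1; egl-9*, 156 and 177 CPM in *egl-9 hif-1*, 115.5 and 125.5 CPM in *egl-9(lf)*, and 157 and 157 CPM in wild type. The *cyp-36A1; egl-9* and *egl-9(lf)* libraries were all below wild type, and *egl-9 hif-1* overlapped wild type.

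*gas-1* fell by 0.38 on the log2 scale in *egl-9(lf)* against wild type (SE 0.104, interval −0.61 to −0.15, adjusted p = 0.0244). The call was lost when any 1 of the 4 libraries compared was left out, with adjusted p between 0.0765 and 0.210, and with library totals (adjusted p = 0.0534). It rose by 0.46 in *egl-9 hif-1* against *egl-9(lf)* (SE 0.104, interval 0.24 to 0.69, adjusted p = 0.00875), a call lost in 1 of 20 alternatives, without replicate 1 of *egl-9(lf)* (0.41, adjusted p = 0.114). In *cyp-36A1; egl-9* it was at −0.24 against wild type (adjusted p = 0.135) and 0.15 against *egl-9(lf)* (interval −0.08 to 0.38), and neither passed.

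*nduf-2.2* (T26A5.3) is a second gene for that subunit and was called in 0 comparisons. It had 114 and 92.9 CPM in *cyp-36A1; egl-9*, 113 and 98.2 CPM in *egl-9 hif-1*, 93.2 and 103.7 CPM in *egl-9(lf)*, and 94.4 and 88.3 CPM in wild type, so only *egl-9 hif-1* had both libraries above wild type and all other pairs of strains overlapped. The log2 fold change in *egl-9(lf)* against wild type was 0.11. The ratio of *gas-1* to *nduf-2.2* in FPKM was 1.11 and 1.299 in *cyp-36A1; egl-9*, 1.29 and 1.67 in *egl-9 hif-1*, 1.15 and 1.13 in *egl-9(lf)*, and 1.55 and 1.65 in wild type. The ratio was below wild type in every *egl-9* library with intact *hif-1*, and also in replicate 1 of *egl-9 hif-1*. That replicate, at 1.29, lay within the range of those libraries, so the ratio did not separate the strains by *hif-1*. The ratio is given as a description. The expected counts of *nduf-2.2* were whole numbers in all 8 libraries, with no fractional share of a read in any of them.

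*nuo-1* (C09H10.3), the NADH-binding subunit, had 348 and 328 CPM in *cyp-36A1; egl-9*, 342 and 356 CPM in *egl-9 hif-1*, 322 and 329 CPM in *egl-9(lf)*, and 374 and 356 CPM in wild type. Its libraries in *egl-9(lf)* were below both of wild type, by a log2 fold change of −0.17 that did not pass. The remaining complex I genes did not pass in any comparison either. Apart from *gas-1* and *nduf-2.2*, their log2 fold changes in *egl-9(lf)* against wild type lay between −0.24 for *nduf-7* and 0.05 for *nuo-3*. In *egl-9 hif-1* against *egl-9(lf)* they lay between −0.03 for *nuo-3* and 0.24 for *nduf-7*. Both comparisons use the same *egl-9(lf)* libraries.

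**Figure D3:**
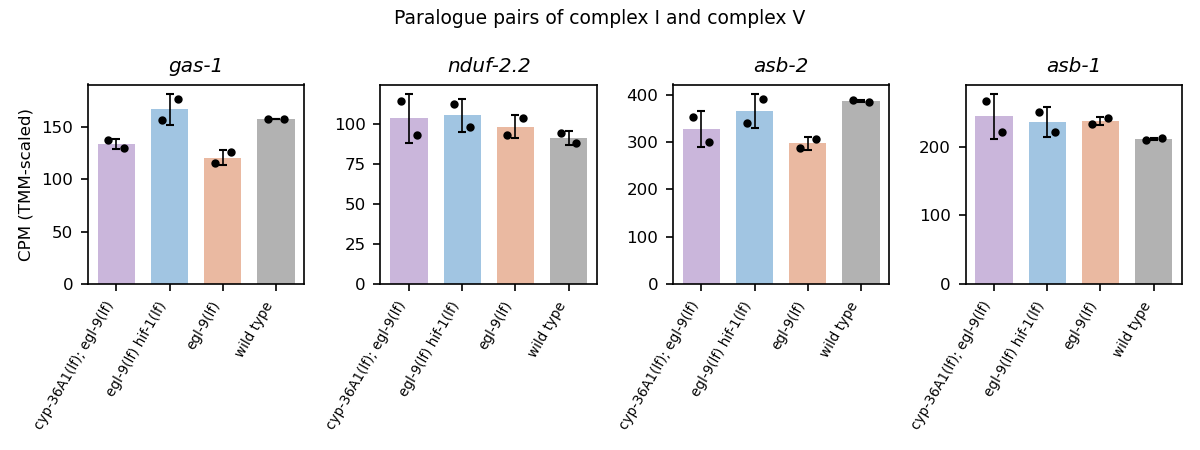
CPM of *gas-1* and *nduf-2.2*, which encode the same complex I subunit, and of *asb-2* and *asb-1*, which encode the b subunit of the ATP synthase, with 1 point per library, a bar from 0 to the strain mean and error bars of 1 SD (n = 2). *gas-1* and *asb-2* were lower in both *egl-9(lf)* libraries than in wild type, at 115.5 and 125.5 CPM and at 287 and 307 CPM, and their partners were not.

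The 4 genes of complex III had a median log2 fold change of −0.23 in *egl-9(lf)* against wild type and 0.16 in *egl-9 hif-1* against *egl-9(lf)*, and 0 of them passed in either. *isp-1* (F42G8.12), the Rieske iron-sulfur protein, had 395.3 and 327 CPM in *cyp-36A1; egl-9*, 356 and 374 CPM in *egl-9 hif-1*, 339.5 and 350.5 CPM in *egl-9(lf)*, and 386 and 374 CPM in wild type. The *egl-9(lf)* libraries were below those of wild type, by −0.14, and the *cyp-36A1; egl-9* libraries lay on either side of both strains. Of this complex *ucr-2.1*, a core subunit, came nearest to a call, at −0.29 (adjusted p = 0.0726). *cyc-1*, the cytochrome *c*1 of the complex, had 424 and 427 CPM in *cyp-36A1; egl-9*, 468 and 472 CPM in *egl-9 hif-1*, 407 and 415 CPM in *egl-9(lf)*, and 478 and 478 CPM in wild type. Each mutant strain was below wild type in both libraries, with *egl-9(lf)* the lowest, and the difference of −0.22 from wild type in *egl-9(lf)* did not pass.

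Cytochrome *c* carries single electrons between complexes III and IV. *cyc-2.1* (E04A4.7) had 553 and 433 CPM in *cyp-36A1; egl-9*, 557 and 603 CPM in *egl-9 hif-1*, 448 and 473 CPM in *egl-9(lf)*, and 529 and 556 CPM in wild type. Its log2 fold change was −0.24 in *egl-9(lf)* against wild type and 0.33 in *egl-9 hif-1* against *egl-9(lf)* (adjusted p = 0.0999), and neither passed although the libraries did not overlap. The libraries of *cyp-36A1; egl-9* reached below those of *egl-9(lf)* and into the range of wild type.

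Complex IV had a median of −0.14 in *egl-9(lf)* against wild type and 0.10 in *egl-9 hif-1* against *egl-9(lf)*, and 0 of its 6 genes passed in either. *cox-5B* (F26E4.9), also known as *cco-1* and widely used as an RNAi target, had 325 and 262 CPM in *cyp-36A1; egl-9*, 256 and 287 CPM in *egl-9 hif-1*, 257 and 257 CPM in *egl-9(lf)*, and 281 and 288 CPM in wild type. The difference between *egl-9(lf)* and wild type was −0.15. *cox-6A* differed in sign, at 0.11, and the other genes of the complex lay between −0.17 for *cox-7C* and −0.12 for *cox-5A*.

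The 10 genes of complex V had a median of −0.19 in *egl-9(lf)* against wild type and 0.21 in *egl-9 hif-1* against *egl-9(lf)*. *atp-2* (C34E10.6), the catalytic beta subunit, had 2251 and 2083 CPM in *cyp-36A1; egl-9*, 2361 and 2392 CPM in *egl-9 hif-1*, 2071 and 2114 CPM in *egl-9(lf)*, and 2397 and 2341 CPM in wild type. It was lower in both *egl-9(lf)* libraries than in wild type, by −0.18, and did not pass.

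*asb-2* (F02E8.1), one of a pair of genes for the b subunit of the stalk, was the complex V member that passed. It had 353 and 300.3 CPM in *cyp-36A1; egl-9*, 340.2 and 391 CPM in *egl-9 hif-1*, 287 and 307 CPM in *egl-9(lf)*, and 388 and 385 CPM in wild type. It fell in *egl-9(lf)* against wild type by 0.38 on the log2 scale (SE 0.118, interval −0.64 to −0.12, adjusted p = 0.0434), a call lost without any 1 of the 4 libraries compared (adjusted p between 0.120 and 0.250) and with library totals (adjusted p = 0.0802). Against *egl-9(lf)*, *egl-9 hif-1* was higher in both libraries by 0.30, which did not pass (adjusted p = 0.109).

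*asb-1* (F35G12.10), the germline-expressed gene of the pair, had 267 and 221 CPM in *cyp-36A1; egl-9*, 251 and 221 CPM in *egl-9 hif-1*, 233 and 241 CPM in *egl-9(lf)*, and 210.3 and 212 CPM in wild type. Every mutant library was above both wild-type libraries, and the log2 fold change of 0.16 in *egl-9(lf)* against wild type did not pass. The ratio of *asb-2* to *asb-1* in FPKM was 1.36 and 1.399 in *cyp-36A1; egl-9*, 1.401 and 1.82 in *egl-9 hif-1*, 1.26 and 1.303 in *egl-9(lf)*, and 1.89 and 1.86 in wild type. Summed CPM of 8 germline marker genes were 4636 and 4845 in *cyp-36A1; egl-9*, 4546 and 3865 in *egl-9 hif-1*, 4654 and 4790 in *egl-9(lf)*, and 3829 and 4024 in wild type, and 3 of the 8 markers were called higher in *egl-9(lf)* than in wild type. The part of germline content in these values was not tested.

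*asg-2* (C53B7.4), a small membrane subunit, was as far below wild type as *asb-2* without passing. It had 143 and 113 CPM in *cyp-36A1; egl-9*, 133 and 159.5 CPM in *egl-9 hif-1*, 117 and 124 CPM in *egl-9(lf)*, and 157 and 157 CPM in wild type, and its log2 fold change in *egl-9(lf)* against wild type was −0.38 (adjusted p = 0.0638). Only *egl-9 hif-1* reached the wild-type level, in 1 of its libraries. With the replicate as a block, which pairs the libraries by number, the call was made (adjusted p = 0.0459). It was made in 8 of 20 alternatives, among them DESeq2 (adjusted p = 0.0486) and the fit without the filter on low counts (adjusted p = 0.0196). The other complex V genes lay between −0.25 for F58F12.1, the delta subunit, and −0.08 for *atp-3*.

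*ant-1.1* (T27E9.1), the most abundant member, had 3605 and 3017 CPM in *cyp-36A1; egl-9*, 3413 and 3511 CPM in *egl-9 hif-1*, 3125 and 2977 CPM in *egl-9(lf)*, and 3345 and 3327 CPM in wild type. It was lower in both *egl-9(lf)* libraries than in wild type by −0.13 and higher in *egl-9 hif-1* than in *egl-9(lf)* by 0.18, and neither passed.

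**Figure D4:**
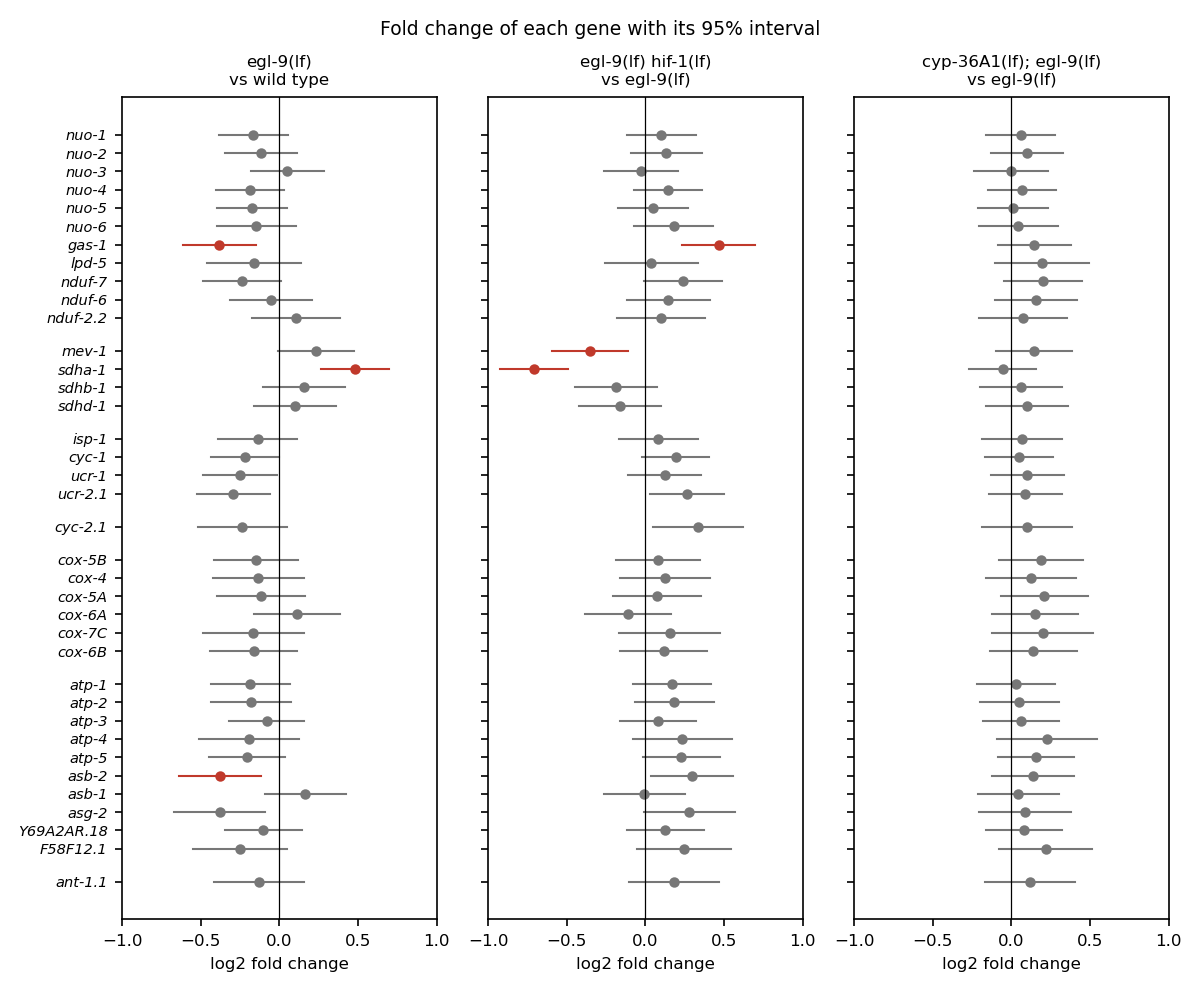
Log2 fold change of each of the 37 genes with its 95% interval, before adjustment for the number of genes, in the comparisons of *egl-9(lf)* with wild type, *egl-9 hif-1* with *egl-9(lf)* and *cyp-36A1; egl-9* with *egl-9(lf)*, with red points for genes at an adjusted p below 0.05. The red points are *sdha-1*, *gas-1* and *asb-2* in the comparison with wild type, *sdha-1*, *gas-1* and *mev-1* in that with *egl-9 hif-1*, and none in that with *cyp-36A1; egl-9*.

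A further 35 genes for subunits, second copies and carriers were listed beside the 37, of which 33 passed the filter. In *egl-9(lf)* against wild type 0 rose, where 7.47% of all genes did, and 4 fell, a share near the 13.6% over all genes. The median was −0.20. In *egl-9 hif-1* against *egl-9(lf)* the same 4 genes rose, a share near the 13.5% over all genes, and 0 fell, where 6.39% did. They were *ant-1.3* and *ant-1.4*, further genes for ADP/ATP carriers, *cyc-2.2*, the second cytochrome *c* gene, and *ucr-2.2*, the partner of *ucr-2.1*. *cyc-2.2* had 17.4 and 13.6 CPM in *cyp-36A1; egl-9*, 27.2 and 35.1 CPM in *egl-9 hif-1*, 11.7 and 11.14 CPM in *egl-9(lf)*, and 29.7 and 32.4 CPM in wild type. Its log2 fold change was −1.44 in *egl-9(lf)* against wild type (adjusted p = 0.000369) and −0.999 in *cyp-36A1; egl-9* against wild type (adjusted p = 0.00364), and that of *cyc-2.1* in *egl-9(lf)* was −0.24.

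*ant-1.3* and *ant-1.4* were lower still in *egl-9(lf)*, at −1.98 and −2.098, and higher in *egl-9 hif-1* than in *egl-9(lf)* by 2.59 and 2.71. Their levels were low: *ant-1.3* had 4.69 and 4.26 CPM in *egl-9(lf)*, against 16.002 and 19.6 CPM in wild type. Summed CPM of 4 sperm marker genes were also low in the strains where these genes were low, at 84.1 and 81.4 in *cyp-36A1; egl-9*, 152 and 225 in *egl-9 hif-1*, 67.5 and 71.6 in *egl-9(lf)*, and 170 and 175 in wild type. All 4 sperm markers were called lower in *egl-9(lf)* than in wild type, with a median of −1.36, and all 4 higher in *egl-9 hif-1* than in *egl-9(lf)*, and their part in these carrier and cytochrome *c* genes was not tested.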

How the data were processed

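Poly(A) RNA of 150 whole animals per library was sequenced as single-end TruSeq libraries, 2 separately grown populations for each of 4 strains. The authors aligned the reads to ce10 with Ensembl 65 genes using RSEM 1.2.15 and Bowtie 1.0.1, and deposited expected counts and FPKM for each gene and library, with replicates not pooled. Expected counts are estimates, and 36.1% of those above 0 were not whole to within 0.001. Of the 37 members, 36 had such a value in at least 1 library and 10 in all 8. The part of reads shared by similar genes in these fractions was not tested. Strand was not used as far as the sources used here state, and 11 members overlap an exon of another gene in the Ensembl annotation of release 115, among them *gas-1* (1.54% of its exon bases) and *mev-1* (2.88%) but not *sdha-1* or *asb-2*.

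The deposited expected counts were rounded to whole numbers, filtered with filterByExpr (14311 of 45461 features kept), scaled by TMM and tested in 1 model of all 8 libraries with edgeR 4.0.16 in R 4.3.3 (quasi-likelihood test, 8 libraries in 4 strains, prior degrees of freedom 6.63). P-values were adjusted by Benjamini and Hochberg over all genes tested, with a threshold of 0.05. CPM, compared between strains, use TMM library sizes, and levels between genes use the FPKM deposited by the authors. Library totals ran from 11925027 to 22269111, and with 2 libraries a strain the intervals rest on the spread shared over the genes and strains.

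The comparisons were *egl-9(lf)*, *cyp-36A1; egl-9* and *egl-9 hif-1* with wild type and both double mutants with *egl-9(lf)*. The comparison of the double mutants with each other was added after the data were seen. The members, marker genes and lists were chosen with earlier results of these data known. Values per library are given for members called in a main comparison, for a leading gene of each complex (*nuo-1*, *mev-1*, *isp-1*, *cox-5B*, *atp-2*, *cyc-2.1*, *ant-1.1*) and for the pairs *gas-1* with *nduf-2.2* and *asb-2* with *asb-1*. Other members (*sdhb-1*, *sdhd-1*, *asg-2*, *cyc-1*, *ucr-2.1* and those at the ends of a range) were named after their values were seen. In other lists up to 4 called genes with the largest change are named.

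Replicate numbers are shared by the strains, and same-numbered libraries deviated together, with correlations of 0.111 to 0.273 over 14311 genes in all 6 pairs of strains, so by the rule over all genes they were treated as pairs in an alternative fit with the replicate as a block. Over the 37 members alone the correlation was below 0 in 5 of the 6 pairs, between −0.393 and 0.362. Other alternatives were median-ratio scaling, library totals, edgeR's revised and robust estimates of the spread, DESeq2 1.42.0, no filter, a fit of only the strains compared, limma 3.58.1 on log2 of the authors' FPKM plus 0.5 (or 0.1 or 1, keeping genes at 1 FPKM in 2 libraries, or with no filter), an adjusted p of 0.01 and leaving out each library. The tests were run on simulated data with known changes first. All 37 members matched a symbol or name in RefSeq. No sequences or coordinates are given.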

Additional observations from a re-analysis of the deposited data

How the results depend on the processing

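Over the 37 genes and 6 comparisons, 21 alternatives gave 4662 values. No call reversed its direction, 44 called values lost the call, 34 others gained one, and 264 uncalled values differed in sign. In *egl-9(lf)* against wild type, the count of members called lower (2) was 0 with library totals, 0 with limma on FPKM under all 4 of its settings, 0 at an adjusted p of 0.01 and 16 in a fit of the 2 strains alone, and it was 0 to 4 when 1 library was left out. The count called higher (1) was 2 in the fit of 2 strains and 0 to 1 with 1 library left out. In *egl-9 hif-1* against *egl-9(lf)*, the count called higher (1) was 2 without the filter on low counts and 0 to 2 with 1 library left out, and the count called lower (2) was 1 in the fit of 2 strains, 1 at an adjusted p of 0.01 and 1 to 2 with 1 library left out. In *cyp-36A1; egl-9* against wild type, the count called higher (2) was 1 with limma without its filter, 0 at an adjusted p of 0.01 and 0 to 3 with 1 library left out. Between the double mutants, leaving out 1 library gave 1 to 3 members called higher and 0 to 1 called lower. A strain left with 1 library is assumed to vary as the others do, and the cause of these changes was not tested. With the replicate block, 1 call was gained, *asg-2* (a small subunit of the ATP synthase) in *egl-9(lf)* against wild type, at −0.38 with an adjusted p of 0.0459 in the paired fit and 0.0638 without, which made 3 members lower, and the block changed no other call among the members. It took the adjusted p of *pdhb-1* and *dld-1* in *egl-9 hif-1* against *egl-9(lf)* to 0.0512 and 0.0512. In the 8-library model differences near −0.2 on the log2 scale did not pass, and the part of depth in this was not tested.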

Other observations

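Some genes that feed or regulate the chain also differed between the strains. *sqrd-1*, the sulfide:quinone oxidoreductase that passes electrons from hydrogen sulfide to the quinone pool, had 233 and 253 CPM in *cyp-36A1; egl-9*, 2.04 and 1.12 CPM in *egl-9 hif-1*, 303 and 359.5 CPM in *egl-9(lf)*, and 3.1002 and 4.27 CPM in wild type. It rose by 6.53 on the log2 scale in *egl-9(lf)* against wild type (adjusted p = 1.698e-08 by edgeR) and fell by 7.73 in *egl-9 hif-1* against *egl-9(lf)*. *mai-1*, a homologue of the ATP synthase inhibitor, rose by 1.099 in *egl-9(lf)* against wild type and fell by 1.58 in *egl-9 hif-1* against *egl-9(lf)*. *kynu-1*, the kynureninase needed in *C. elegans* to make rhodoquinone, moved the other way, with 22.3 and 27.7 CPM in *egl-9(lf)* against 80.6 and 84.1 CPM in wild type (log2 fold change −1.72). These 3 were the genes called of the 8 on that list, 2 higher and 1 lower, where 7.47% of all genes rose and 13.6% fell in *egl-9(lf)* against wild type, and the median of the list was 0.127.

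Of 12 genes for ubiquinone synthesis and complex assembly, 1 was called higher in *egl-9(lf)* than in wild type, a share near the 7.47% of all genes. On this list 0 were called lower, where 13.6% of all genes were, and the median was 0.014. *coq-2*, the polyprenyltransferase of quinone synthesis, had 38.5 and 37.2 CPM in *cyp-36A1; egl-9*, 20.3 and 17.8 CPM in *egl-9 hif-1*, 35.3 and 32.1 CPM in *egl-9(lf)*, and 21.8 and 22.2 CPM in wild type. As for *sdha-1*, the libraries of *egl-9 hif-1* were the lowest and those of *cyp-36A1; egl-9* and *egl-9(lf)* lay above wild type: it rose by 0.62 in *egl-9(lf)* against wild type and fell by 0.82 in *egl-9 hif-1* against *egl-9(lf)*.

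Of 15 genes of pyruvate dehydrogenase and the citric acid cycle, 0 rose and 3 fell in *egl-9(lf)* against wild type, where 13.6% of all genes fell. They were *suca-1* (−0.60), *sucl-1* (−0.50) and *pdhb-1* (−0.40), a subunit of pyruvate dehydrogenase. *suca-1* and *sucl-1* encode subunits of succinyl-CoA ligase, the enzyme that makes succinate one step before complex II. A further gene of that enzyme on the list, *sucg-1*, was not called. It had 113 and 126 CPM in *egl-9(lf)*, above the 102 and 109 CPM in wild type. Among the 15 log2 fold changes, 4 were above 0 and 11 below. In *egl-9 hif-1* against *egl-9(lf)*, 4 rose: *suca-1* (0.58), *sucl-1* (0.57), *dld-1* (0.33) and *pdhb-1* (0.32), where 13.5% of all genes rose. The calls of *dld-1* and *pdhb-1* were lost with the replicate as a block (adjusted p = 0.0512 for each). *suca-1* had 209 and 202 CPM in *cyp-36A1; egl-9*, 230.5 and 258 CPM in *egl-9 hif-1*, 149 and 178 CPM in *egl-9(lf)*, and 242 and 252 CPM in wild type. Of 11 mitochondrially encoded subunit genes tested, 2 fell in *egl-9(lf)* against wild type, where 13.6% of all genes fell. MTCE.26 fell by 0.78 and MTCE.23 by 0.67. Both rose in *egl-9 hif-1* against *egl-9(lf)*, by 0.69 and 0.55, where 13.5% of all genes rose. The libraries were made from poly(A) RNA, and the part of its selection in these values was not tested. In *cyp-36A1; egl-9* against *egl-9(lf)*, 0 genes of these lists were called, where only 2.33% of all genes were.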
